A study of Mus musculus with 8 samples.

Results

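The replication-dependent histone genes are the clustered genes that supply linker histone H1 and the core histones H2A, H2B, H3 and H4 for the chromatin assembled behind each replication fork. They were taken as every non-control probe whose RefSeq transcript carried a symbol of the Hist1h, Hist2h, Hist3h or Hist4h series or its current equivalent, which gave 52 probes for 47 genes among the 55681 probes and 20660 named genes of the array. The name table held 70 genes that met this rule, and 23 of them had no probe here. Of the 52 probes, 50 probes of 46 genes passed the filter on dim signals and were tested with 33093 probes in all. The other two were the probe for H1f3 (Hist1h1d), a linker histone, which was well above background in 3 embryos, and a second probe for H4f16 (Hist4h4), which was well above background in none.

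Gene expression was compared between E8.5 mouse embryos of one genotype, wild type for *Eed*, 4 of them sired by heterozygous (HET) and 4 by wild-type (WT) males of the Eedl7Rn5-1989SB line on a C57bl6/129 background. *Eed* encodes a core subunit of Polycomb repressive complex 2, and the question was whether a father's genotype leaves a trace in offspring that did not inherit the mutant allele. All mothers were wild type, each group held 2 female and 2 male embryos, and each embryo was hybridised to 1 array of a one-colour Agilent 8x60K slide. The embryos of WT fathers shared one slide and those of HET fathers the other, so the slide cannot be told apart from the sire's genotype, and replicates 2 to 4 of the WT group carry the same first part of an embryo code whose meaning is not given. The sire of each embryo is not labelled, and the study's legends differ on whether there were as many sires as embryos. Embryos of a group may therefore share a father, and the tests take each embryo as a replicate, so p-values for the father are too small where they do.

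Replication-dependent histone mRNAs accumulate in S phase and end in a stem-loop in place of a poly(A) tail. Their synthesis and 3′ end formation are driven by cyclin E and CDK2, NPAT, the stem-loop binding protein SLBP and the U7 machinery, and several cluster genes also make some polyadenylated transcript. The labelling kit used here primes from poly(A), and which form these probes report was not tested. Genes of one histone class are close to identical in their coding sequence, and how far a probe takes up signal from paralogues was not tested, so each value below belongs to a single gene only with that limit.

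Many H2A and H2B genes stand back to back and share the DNA between their starts. Of the 5 pairs with both members measured, the 3 with an upstream window for both genes are printed. A single H4 upstream region stands beside them for contrast. The sequences were read from RefSeq's promoter table (GRCm38.p6, plus strand for the pairs), and capitals mark 3 motifs wherever their letters stand on either strand, the TATA box as TATAAA, the CCAAT box as those letters and the octamer core as TTTGCAT. The H2ac8 and H2bc8 interval spans chr13:23571221-23571399, that of H2ac22 and H2bc22 spans chr13:21787249-21787487, and that of H2bc1 and H2ac1 spans chr13:23934157-23934436. The first gene of each pair is read leftward from the left end and the second rightward from the right end. The H4c9 window is the 250 bases upstream of its start on the minus strand, chr13:22041363-22041612.
H2ac8 and H2bc8: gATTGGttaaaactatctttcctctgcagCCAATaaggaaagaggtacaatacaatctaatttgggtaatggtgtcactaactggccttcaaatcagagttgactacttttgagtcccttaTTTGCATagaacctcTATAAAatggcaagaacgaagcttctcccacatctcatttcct
H2ac22 and H2bc22: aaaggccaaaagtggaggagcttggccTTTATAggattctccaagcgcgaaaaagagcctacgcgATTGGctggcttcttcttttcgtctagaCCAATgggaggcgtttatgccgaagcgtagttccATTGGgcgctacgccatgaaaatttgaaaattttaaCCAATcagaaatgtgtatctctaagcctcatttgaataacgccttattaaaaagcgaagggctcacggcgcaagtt
H2bc1 and H2ac1: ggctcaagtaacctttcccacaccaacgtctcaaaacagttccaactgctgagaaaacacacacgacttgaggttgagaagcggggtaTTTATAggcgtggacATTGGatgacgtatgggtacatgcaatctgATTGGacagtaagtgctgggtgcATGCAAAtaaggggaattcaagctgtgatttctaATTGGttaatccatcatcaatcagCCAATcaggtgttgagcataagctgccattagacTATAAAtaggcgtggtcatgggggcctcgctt
H4c9: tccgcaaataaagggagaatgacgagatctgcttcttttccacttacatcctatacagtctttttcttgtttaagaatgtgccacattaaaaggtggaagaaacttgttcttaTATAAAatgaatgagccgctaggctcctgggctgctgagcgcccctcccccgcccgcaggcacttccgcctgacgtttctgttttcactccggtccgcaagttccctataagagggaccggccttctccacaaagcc

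The table held 43 upstream windows for 42 of the 47 genes. Within 250 bases of the start, CCAAT was found in 37 of the 43 windows (86.0%, against 33.8% of all 32851 windows in the table). TATAAA was found in 22 (51.2%, against 12.4%) and TTTGCAT in 14 (32.6%, against 4.12%). The classes differed in these letters. Every H1, H2A, H2B and H3 window held CCAAT, whereas 2 of 8 H4 windows did. TTTGCAT was found in 7 of 14 H2A and 6 of 10 H2B windows, in 1 H4 window, and in 0 of 6 H1 and 0 of 5 H3 windows. Windows of a divergent pair overlap and so are not independent of each other.

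The samples are labelled as whole embryo. All 4 erythroid, all 4 yolk sac endoderm and all 4 embryo proper markers were well above background on all 8 arrays. So were all 4 proliferation markers, among them Mki67 and Pcna. Of the 4 decidua and trophoblast markers, Tpbpa was above background on no array, and the other 3 were well above background on all 8. The mean log2 level of the 4 ran from -2.15 to -1.82 with WT fathers and from -3.60 to -2.23 with HET fathers. That mean includes Tpbpa, at -7.99 and -7.23 by group mean. Prl8a2 ran from 1.56 to 2.92 with WT fathers and from -2.61 to 0.72 with HET fathers, without overlap. Over all tested probes, 3.15% had father groups that did not overlap. Its difference of -2.46 ± 0.75 (SE) did not pass the test defined below, and Prl3d1 and Prl3b1 overlapped. How much maternal or trophoblast tissue each sample held was not tested. Between 29203 and 39530 probes were well above background per array, with the most in WT-father embryo 1 (39530) and HET-father embryo 3 (38878). These 2 arrays also had the lowest 75th percentiles of log2 signal, 9.88 and 9.91, against 10.07 to 10.32 on the other 6 arrays. Negative control spots were brighter on the HET-father slide, at 2.87 ± 0.28 (SD, n = 4) against 2.20 ± 0.10 on the log2 scale.

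No histone probe passed the test between embryos of HET and WT fathers. Levels are given as log2 signal with the array's 75th percentile at 0, and differences as HET minus WT on that scale, and a call required an adjusted p (Benjamini-Hochberg, limma) under 0.01 together with a change of 2-fold or more. Of the 50 tested probes 0 were called, as were 0% of all tested probes. At an unadjusted p under 0.05 there was 1 histone probe, against 4.35% of all probes, and the same probe was the only one whose 2 groups did not overlap, against 3.15% of all probes. The father difference ran from -0.45 to 0.48 with a median of -0.05, beside a median of 0.00 over all tested probes, and the median of the histone probes was 0.01 without WT-father embryo 1 and 0.02 without HET-father embryo 1. In number, 21 probes were higher and 29 lower with HET fathers, where 49.9% of all probes were higher. The 95% interval of the difference lay wholly within 2-fold in either direction for 43 of the 50 probes, and the 7 wider ones were those of the 7 probes with the largest SD over the embryos. By location, the median was -0.03 for the 38 probes of the Hist1 cluster on chromosome 13, -0.05 for the 9 of Hist2 on chromosome 3, 0.02 for the 2 of Hist3 on chromosome 11 and -0.10 for the 1 of Hist4 on chromosome 6.

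**Figure D1:**
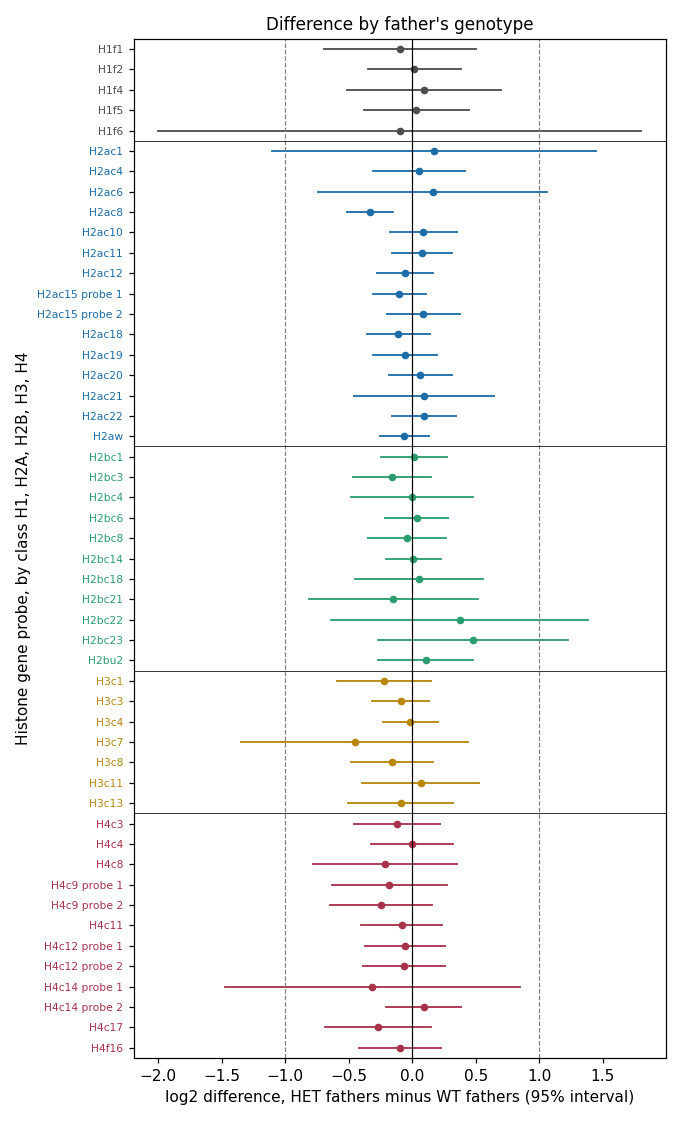
Difference in log2 level between embryos of HET and WT fathers (x axis, point) with its 95% interval (line) for each of the 50 tested histone probes, coloured and ordered by class; dashed lines mark 2-fold. The interval of H2ac8 is the one that lies wholly to the left of 0, and all 50 points lie between -0.45 and 0.48.

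That probe was for H2ac8 (Hist1h2ae), a core H2A gene. Its levels were -2.26, -2.16, -2.17 and -1.97 in WT-father embryos 1 to 4 and -2.49, -2.52, -2.48 and -2.41 in HET-father embryos 1 to 4. All 4 HET-father values were below all 4 WT-father values. The difference was -0.33 ± 0.08 (SE, 95% interval -0.52 to -0.15), with an unadjusted p of 0.0032 and an adjusted p of 1.00 in limma, so it did not pass the test. It kept its sign under every alternative tried, from -0.45 to -0.28, but with no scaling between arrays the unadjusted limma p was 0.060 and with a median shift 0.24 (adjusted p = 1.00 for both). H2bc8 (Hist1h2bg), the H2B gene across the interval printed above, had levels of -3.10, -3.20, -3.20 and -3.30 with WT fathers and -3.31, -3.57, -3.03 and -3.05 with HET fathers. Its groups overlapped and its father difference was -0.04 ± 0.13 (SE).

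Among the linker histones, the 5 tested H1 probes had father differences between -0.10 and 0.09. H1f6 (Hist1h1t), the testis-specific linker histone, had the largest spread of any member over the 8 embryos, with an SD of 1.19. Its levels were -1.24, -3.34, -3.85 and -2.63 with WT fathers and -4.16, -2.94, -0.87 and -3.47 with HET fathers. It was well above background on all 8 arrays, and it was highest in WT-father embryo 1 and HET-father embryo 3, the 2 arrays with the most probes above background and the lowest 75th percentiles. The part of those arrays in this spread was not tested. The father difference of -0.10 ± 0.81 (SE) was 0.41, 0.33 and 0.10 without WT-father embryo 1, HET-father embryo 1 and HET-father embryo 4. Without HET-father embryo 3 it was -0.76. H1f2 (Hist1h1c), a somatic H1 gene, ran the other way, at 0.32 and 0.30 in those same embryos and 0.50 to 0.89 in the other 6. Among the other somatic linker genes, H1f1 (Hist1h1a) was at 1.88, 1.23, 1.32 and 2.12 with WT fathers and at 1.29, 1.28, 2.04 and 1.55 with HET fathers, and overlapped between the groups. H1f4 (Hist1h1e) was at 5.14, 4.63, 5.12 and 5.82 with WT fathers and at 5.38, 5.23, 5.57 and 4.90 with HET fathers, and overlapped as well. Their differences were -0.10 ± 0.26 and 0.09 ± 0.26 (SE).

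The H2A class had 15 tested probes with a median father difference of 0.06, 9 higher and 6 lower with HET fathers. Most varied little between embryos, and H2aw (Hist3h2a) and H2ac12 (Hist1h2ah) were among the 4 genes with the smallest SD, at 0.10 and 0.12, when each gene was counted by its brightest probe. H2aw lay between 1.06 and 1.35 in all 8 embryos. H2ac1 (Hist1h2aa), the gene of the germline variant TH2A, was at -0.49, -2.28, -1.51 and -1.79 with WT fathers and at -0.99, -2.06, -0.17 and -2.17 with HET fathers. Its highest values were again those of WT-father embryo 1 and HET-father embryo 3, the groups overlapped, and the difference of 0.17 ± 0.55 (SE) was -0.22 without HET-father embryo 3, -0.08 without WT-father embryo 2 and 0.51 without WT-father embryo 1. H2ac6 (Hist1h2ac) ran from -4.60 to -4.17 with WT fathers and from -5.40 to -3.53 with HET fathers. In the lowest of these, HET-father embryo 4, it was not well above background, and the difference of 0.16 ± 0.39 (SE) was -0.08 without HET-father embryo 2. H2ac22 (Hist1h2an) was 0.09 higher with HET fathers (SE 0.11). After H2ac8, the largest negative H2A differences were those of H2ac18 (Hist2h2aa1), -0.11 ± 0.11, and of 1 of the 2 probes for H2ac15 (Hist1h2ak), -0.10 ± 0.09. The other H2ac15 probe was 0.09 ± 0.12 higher with HET fathers.

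The H2B class, with 11 tested probes and a median father difference of 0.01, held the 2 largest positive differences of all members. H2bc23 (Hist1h2bq) was at -4.38, -3.92, -3.94 and -4.51 with WT fathers and at -4.07, -4.04, -2.75 and -3.95 with HET fathers. One embryo, HET-father embryo 3, lay above the other 7, which overlapped between groups. The difference of 0.48 ± 0.32 (SE) was 0.16 without that embryo, 0.10 with array weights and up to 0.60 under other alternatives. The array of that embryo had the highest median log2 signal, 6.87, and the brightest negative control spots, 3.17. Their part in values as dim as these was not tested. H2bc22 (Hist1h2bp) had levels of -3.85, -4.55, -4.76 and -4.28 with WT fathers and -4.30, -4.39, -2.69 and -4.57 with HET fathers. Its difference of 0.37 ± 0.43 (SE) was -0.06 without HET-father embryo 3, 0.20 with array weights and up to 0.57 under other alternatives. Over the 8 embryos the level of H2bc22 followed that of H2ac22, its neighbour across the printed interval, with a Pearson r of 0.82. In both genes the highest value was that of HET-father embryo 3, and the points share arrays and scaling. Over the 5 divergent H2A and H2B pairs with both members tested, r ran from -0.69 for H2bc1 and H2ac1 to 0.82, with a median of 0.11, and 3 pairs had father differences of one sign. H2bu2 (Hist3h2ba) was 0.11 ± 0.16 (SE) higher with HET fathers, H2bc21 (Hist2h2be) was 0.15 ± 0.29 lower, but 0.10 higher without HET-father embryo 4, and H2bc14 (Hist1h2bm) was among the steadiest members with an SD of 0.11.

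The H3 class had 7 tested probes, 1 higher and 6 lower with HET fathers, with a median of -0.09. The mean over these probes of the deviation from the 8-embryo mean was -0.41 in HET-father embryo 1. It was -0.01, 0.15 and -0.01 in HET-father embryos 2 to 4, and 0.16, -0.11, -0.05 and 0.28 with WT fathers. H3c7 (Hist1h3f) had the largest negative difference of all members, -0.45 ± 0.38 (SE). It lay at 0.14, -0.10, -0.04 and 0.26 with WT fathers and at -1.63, 0.16, -0.05 and -0.04 with HET fathers. HET-father embryo 1 was low and the other 7 embryos overlapped, and the difference without that embryo was -0.04. H3c1 (Hist1h3a) was 0.22 lower with HET fathers (SE 0.16, groups overlapping), and H3c4 (Hist1h3d) was steady with an SD of 0.11. H3c13 (Hist2h3b) of the Hist2 cluster was at 3.42, 2.98, 3.06 and 3.49 with WT fathers and at 2.83, 3.14, 3.50 and 3.12 with HET fathers, and differed by -0.09 ± 0.18 (SE). The 1 H3 gene that was higher with HET fathers was H3c11 (Hist1h3i), by 0.07 ± 0.20.

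Of the 12 tested H4 probes, 11 were lower with HET fathers and 1 was higher, with a median of -0.11 and a range from -0.31 to 0.09. None had an unadjusted limma p under 0.05. The count of lower probes was 11 or 12 under each of the other scalings, with medians from -0.21 to -0.11. It was 10 when WT-father embryo 1 and HET-father embryo 3 were left out, with a median of -0.05. The mean over the 12 probes of the deviation from the 8-embryo mean was -0.37 in HET-father embryo 1. It was 0.02, 0.11 and -0.02 in HET-father embryos 2 to 4, and 0.31, -0.12, -0.12 and 0.19 with WT fathers. The class count without HET-father embryo 1 alone was not taken. All genes of this class encode the same protein and their probes moved together over the embryos (median pairwise r of 0.71, or 0.39 without scaling between arrays), so the 12 are not separate measurements. H4c17 (Hist1h4m) lay at -0.63, -0.97, -0.89 and -0.65 with WT fathers and at -1.54, -1.02, -0.77 and -0.88 with HET fathers, a difference of -0.27 ± 0.18 (SE). H4c9 (Hist1h4i) was 0.25 ± 0.17 lower by its brighter probe and 0.18 ± 0.19 lower by the other. H4c8 (Hist1h4h) was 0.22 ± 0.24 lower, with its highest value, -3.24, in WT-father embryo 1 (difference 0.02 without it) and the other 7 between -4.39 and -3.91. The groups of all 3 genes overlapped. H4f16, the lone gene of its cluster, was 0.10 ± 0.14 lower, and differed by 0.0019 without WT-father embryo 1 and by 0.0066 without HET-father embryo 1. The 2 probes for H4c12 (Hist1h4k) both differed by -0.06 (SE 0.14 and 0.13). The 2 probes for H4c14 (Hist2h4) had father differences of opposite sign, 0.09 ± 0.13 and -0.31 ± 0.50 (SE), each smaller than its SE. Their mean levels over the 8 embryos were far apart, at 6.55 and -3.34 in that order, and the dimmer probe had an SD of 0.74.

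**Figure D2:**
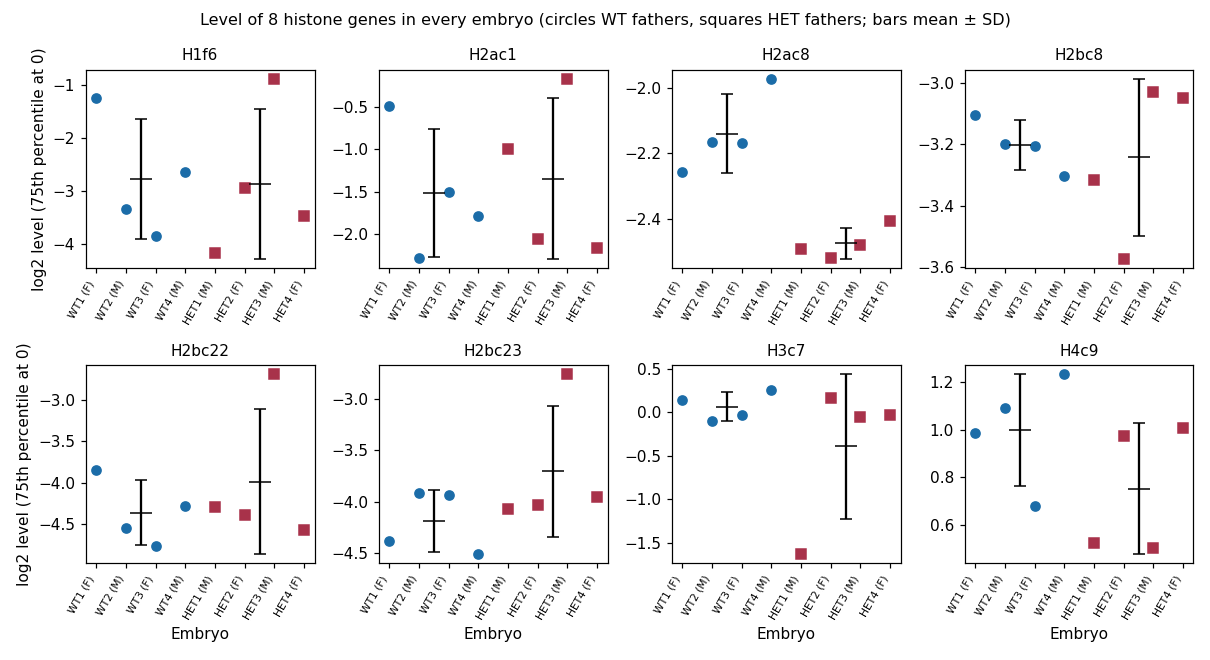
Levels of 8 histone genes in every embryo (y axis, log2 signal with the array's 75th percentile at 0; x axis, embryo with its sex), circles for WT and squares for HET fathers, black bars for the mean ± SD of 4 embryos. The groups separate for H2ac8 and for no other gene shown, and single embryos carry the differences of H2bc22 and H2bc23 (HET-father embryo 3) and H3c7 (HET-father embryo 1).

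Sex was compared within the same embryos, as female minus male with the father's genotype in the limma model. Of the 50 probes 0 were called, against 0.0332% of all tested probes, and 0 had an unadjusted p under 0.05, against 3.27%. The sexes overlapped for all 50 probes, where they did not for 2.58% of all tested probes. The difference ran from -0.44 to 0.44 with a median of 0.05 (-0.02 over all tested probes), and 33 probes were higher in females, against 44.9% of all probes. This direction changed with the scaling. Without scaling between arrays, 12 probes were higher in females and 38 in males, with a median of -0.06. Of the 15 H2A probes, 10 were higher in females with a median of 0.03, but 1 with a median of -0.07 without scaling. Of the 12 H4 probes, 11 were higher in females with a median of 0.10, but 5 with a median of -0.01 without scaling. With each gene counted by its brightest probe, the 3 largest differences toward females were those of H3c7 (0.44 ± 0.38, SE), H4c8 (0.26 ± 0.24) and H2bu2 (0.24 ± 0.15). The 3 largest toward males were those of H2bc22 (-0.44 ± 0.43), H2bc21 (-0.34 ± 0.28) and H2bc23 (-0.26 ± 0.33). The dimmer probes of H4c9 (0.24 ± 0.19) and H4c14 (-0.29 ± 0.52) would rank among these if each probe were counted. HET-father embryos 1 and 3, whose single values set H3c7, H2bc22 and H2bc23 apart above, are both male.

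The father difference was also compared between the sexes through an interaction term, which rests on 2 embryos per sex and father. Of the 50 probes 0 were called, as were 0% of all tested probes, and the lowest adjusted limma p was 0.996. At an unadjusted p under 0.05 there were 6 histone probes for 5 genes, against 2.22% of all probes: H1f2, H2ac1, H2bc1 (Hist1h2ba, the gene of the germline variant TH2B), H2bc4 (Hist1h2bc) and both probes of H4c9. The brighter H4c9 probe lay at 0.98 and 0.68 in females and 1.09 and 1.23 in males of WT fathers, and at 0.97 and 1.00 in females and 0.52 and 0.50 in males of HET fathers. The males of the 2 groups did not overlap and the females did, and the interaction was 0.80 on the log2 scale. H2ac1 had an interaction of -2.57, with females at -0.49 and -1.51 and males at -2.28 and -1.79 for WT fathers and females at -2.06 and -2.17 and males at -0.99 and -0.17 for HET fathers. The number of histone probes at an unadjusted p under 0.05 fell to 2 with a median shift and to 3 without scaling, without WT-father embryo 1 or without HET-father embryo 4. WT-father embryo 1 is female and HET-father embryo 3 male, so a high value in both moves this term the same way. H1f2, H2bc4 and both H4c9 probes are also among the few members with an r above 0 with the 75th percentile (below). The part of those 2 arrays in the 6 probes was not tested.

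The members shared a pattern over the embryos that followed neither the father nor the sex. The mean over the 50 probes of each one's deviation from its 8-embryo mean was 0.21, -0.14, -0.12 and 0.13 in WT-father embryos 1 to 4 and -0.22, 0.02, 0.21 and -0.08 in HET-father embryos 1 to 4. The group means were 0.02 ± 0.18 and -0.02 ± 0.18 (SD, n = 4), a difference well within the spread of either group. The highest embryos were WT-father embryo 1 and HET-father embryo 3 and the lowest was HET-father embryo 1. Over the 8 embryos the median pairwise Pearson r among H4 probes was 0.71, among H3 probes 0.66 and among H2A probes 0.54, but 0.08 among H1 and 0.03 among H2B probes. All of these points share the 8 arrays and 1 scaling factor per array.

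**Figure D3:**
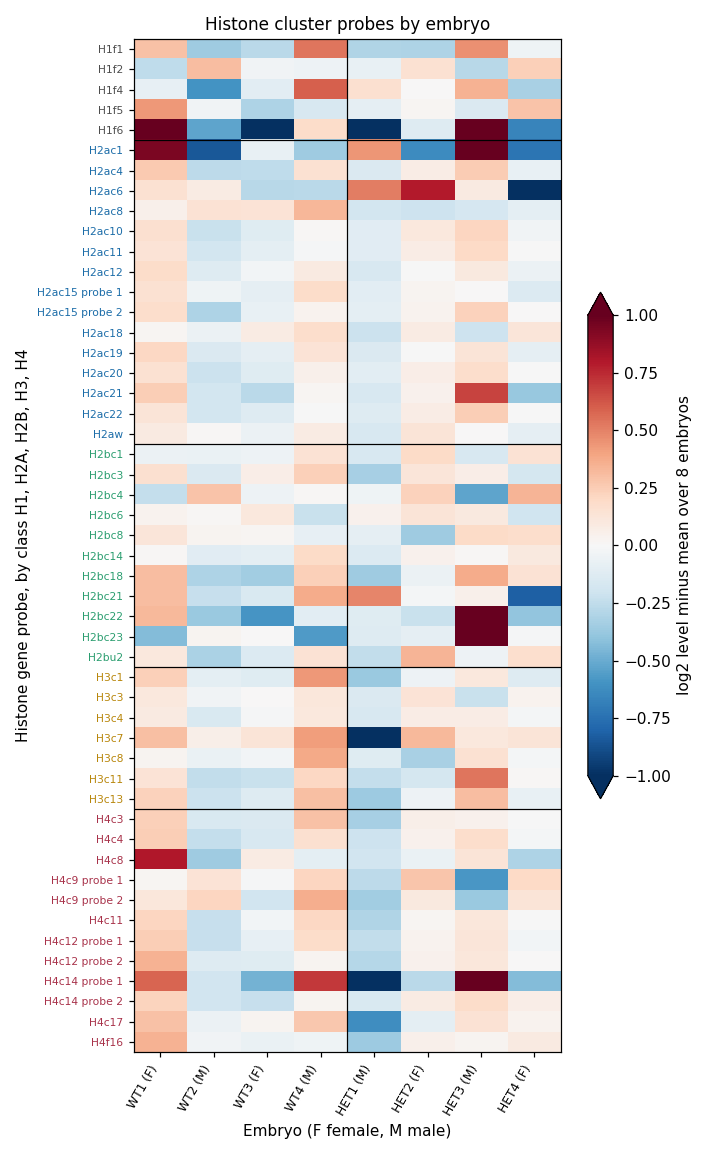
Deviation of each of the 50 tested histone probes (rows, by class) from its mean over the 8 embryos (columns, WT fathers left of the line, HET fathers right) in log2 units, red above and blue below; values beyond 1 have the end colours. Most H2A, H3 and H4 rows are red in WT-father embryo 1 and HET-father embryo 3 and blue in HET-father embryo 1, whereas H1f2 and H2bc4 are blue in WT-father embryo 1 and HET-father embryo 3.

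That shared pattern moved with the array's 75th percentile, the quantity each value is scaled by. The r of a probe's scaled level with the 75th percentile, over 8 embryos, had a median of -0.68 for the histone probes and -0.28 for all tested probes. It was below -0.8 for 17 of the 50 histone probes (34%), against 9.7% of all tested probes, and reached -0.95 for H2ac11 (Hist1h2ag). It was above 0 for 5 histone probes (10%), against 35.4% of all tested probes. These were H1f2 and H2bc4, at 0.66 and 0.63, both H4c9 probes, at 0.07 and 0.26, and H2ac8, at 0.15. Without scaling, the SD of the histone mean over the embryos was 0.07 in place of 0.17 and the median pairwise r over all 50 probes 0.18 in place of 0.44. With quantile normalisation they were 0.10 and 0.30, and the median r was 0.64 among H3 and 0.67 among H4 probes. Within these classes it was 0.38 and 0.39 without scaling, against 0.66 and 0.71 with the 75th percentile shift. With a median shift the order turned over, and HET-father embryo 3 had the lowest histone mean, -0.76.

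**Figure D4:**
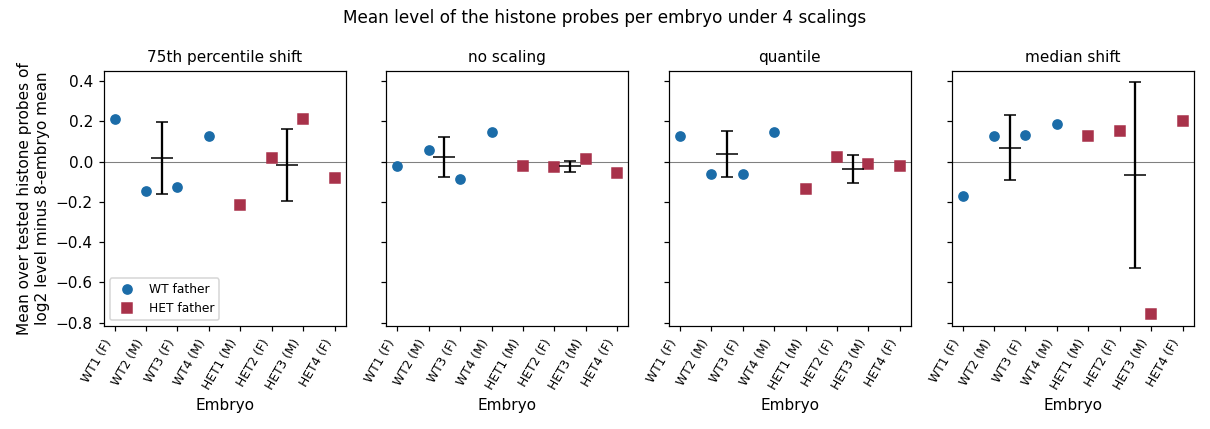
Mean deviation of the 50 histone probes from their 8-embryo mean in each embryo (y axis, log2 units; x axis, embryo with its sex) under 4 scalings of the arrays, circles for WT and squares for HET fathers, black bars for the mean ± SD of 4 embryos. WT-father embryo 1 and HET-father embryo 3 are highest (0.21 each) with the 75th percentile shift, near 0 (-0.02 and 0.01) without scaling, and lowest (-0.17 and -0.76) with the median shift.

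No gene of the histone mRNA machinery passed the test for the father either. Of 18 such genes 16 were tested, 9 higher and 7 lower with HET fathers, with a median of 0.02 and 0 called. Slbp, which binds the stem-loop, differed by 0.04 ± 0.21 (SE), E2f1 by 0.03 ± 0.08 and Ccne1, cyclin E1, by 0.03 ± 0.10, while Npat was too dim to test. The 1 gene at an unadjusted p under 0.05 was Sympk, a scaffold of the 3′ end cleavage complex, at 3.30, 2.87, 2.99 and 2.79 with WT fathers and 3.79, 3.68, 3.36 and 3.38 with HET fathers. Its groups did not overlap, but the difference of 0.56 ± 0.15 (SE) had an adjusted limma p of 1.00. Over all tested probes, 4.35% were under that unadjusted p and 3.15% had groups that did not overlap. All 11 replication-independent histone genes were tested, 8 higher and 3 lower, with a median of 0.05 and 0 at an unadjusted p under 0.05, among them H3f3a at 0.16 ± 0.07 (SE) and H2az1 at 0.05 ± 0.08. All 11 histone chaperone genes were tested as well, with a median of 0.00, 6 higher, 5 lower and 0 at an unadjusted p under 0.05. Over all tested probes the median was 0.00.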

How the data were processed

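Whole-embryo RNA was labelled with Cy3 and hybridised to one-colour arrays. The authors read the spots with Feature Extraction (Agilent, version 11.0.1.1) and deposited an intensity per spot from which background and spatial trend had been removed, without scaling across arrays. Their series-wide table of the same intensity served as an alternative, with 0 of its sample columns left out.

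Control and outlier spots were dropped, the log2 intensity was shifted by each array's 75th percentile over all other spots, and spots of a probe were averaged. Tested probes were well above background on at least 4 of 8 arrays and not in the lowest 20% by mean level. Differences were fitted with limma 3.58.1 in R 4.3.3 over all tested probes with Benjamini-Hochberg adjustment. The method was tested on simulated independent values with planted changes larger than any histone father difference here. That test cannot tell how well changes of the size seen here would be found. Embryos of a group may share a father or litter, so p-values measure the spread between these 8 embryos and not between sires. The number of arrays limits the precision.

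Probe accessions were named through RefSeq's table for GRCm38.p6, which matched 27235 of 28685 RefSeq accessions, and 5 histone probes entered by an older symbol only. Its gene positions were used to find neighbouring H2A and H2B genes, and its chromosomes to place the members. Genes named are the 6 largest rises and falls by father, the 3 largest sex differences each way, the 6 largest and 4 smallest SDs, genes whose probes disagree by over 0.3, genes of the Hist3 and Hist4 clusters, and the fixed lists of histone mRNA, variant, chaperone and marker genes. Others, such as the genes under the interaction term and those that follow the 75th percentile, were named after their values were seen. The members and lists were chosen with earlier results of these data known. Alternatives covered other scalings, filters, blocks and weights and leaving out each embryo.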

Additional observations from a re-analysis of the deposited data

Results flagged for a closer look

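Within groups of 4 embryos, the gap between the farthest embryo and its nearest neighbour was divided by the range of the group, for the named histone probes and the means over the histone probes and their classes. The share exceeded Dixon's 95% limit in 5 of 54 groups. Many of these probes were named for a large spread or difference in these same data, and the groups share arrays. The count can therefore not be set against a chance rate. HET-father embryo 3 was the high one for H2bc23 (share 0.91) and H2bc22 (0.856). HET-father embryo 1 was the low one for H3c7 (0.881) and H4f16 (0.846). For H4f16, WT-father embryo 1 was also the high one of its group (0.93).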

How the results depend on the processing

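The counts of called histone probes were 0 for the father, the sex and their interaction under every alternative that gave one. Leaving out 1 embryo at a time kept these counts at 0 and moved the median father difference between -0.09 and 0.02 and the median sex difference between -0.01 and 0.11, each by less than the spread between embryos. Deviations of embryos with the same replicate number correlated at -0.59 to -0.05. Each such pair is of opposite sex, so these values cannot tell whether the numbers pair the samples. With the number as a replicate block the median father difference of -0.05 and the 0 calls were as before, and probes at an unadjusted limma p under 0.05 numbered 874 in place of 1440 over the whole array. For 21 named histone probes, 398 values were recomputed over 19 settings, with 0 called, 33 changes of sign and 4 shifts beyond the spread between embryos, those of H2ac8 and H2aw. The median over all tested probes was 0.00 in the father and -0.02 in the sex comparison with the 75th percentile shift, -0.10 and 0.13 with the median shift, and -0.01 and -0.12 without scaling, so differences under these settings are read against those medians. No scaling and leaving out both embryos with the most probes above background were chosen after seeing the data. Negative control spots differed in brightness between the slides, and what this did to dim probes was not tested.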
